A study of Macaca mulatta with 38 samples.

Results

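The nuclear factor I (NFI) genes NFIA, NFIB, NFIC and NFIX were followed in neural stem cells cultured from rhesus macaque (Macaca mulatta) fetal cortex. The members were taken by gene symbol: all 4 were in the count table of 34619 genes, and all 4 were among the 20794 genes with enough reads to be tested. Bulk RNA-seq of poly(A) RNA had been run on 38 libraries, 1 per day in vitro in each of 4 culture series. Tissue came from Anterior or Posterior cortex at embryonic day 42 (E42) and from Frontal or Occipital cortex at embryonic day 77 (E77). In every series the cells grew with daily FGF2 on days 1, 3 and 5 (the stem phase). FGF2 was then withdrawn and the medium changed to NeuroBasal with B27, BDNF and NT-3, and libraries were taken on days 6, 7 and 8 (the transition phase) and on days 11, 14 and 17, and at E77 also day 20 (the terminal phase). Cells had been freed with papain and plated on polyornithine and fibronectin, and RNA for each condition came from 2 culture wells. A group of 1 series and 1 phase thus held 3 libraries, or 4 in the terminal phase at E77.

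NFI proteins are transcription factors that bind DNA as dimers at a palindromic site, and they activate some genes and repress others. In the developing cortex NFIA, NFIB and NFIX are known as factors of late radial glia, the neural stem cells of the cortex, where they favour the turn from self-renewal to differentiation and the start of glial gene expression. NFIC has been studied most in the tooth root and is the least described of the family in cortex.

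Which animal each library came from is not in the labels, and a series follows 1 culture over successive days. The p-values of phase comparisons below thus measure the spread between days of a culture. The fits for age and region also hold the day as a term (the day block). Their p-values measure the spread left once day differences shared by the series are removed. Age and region cannot be told apart from fetus, dissection and culture run. Library totals ran from 20149635 to 56363300 counted reads, and no library held fewer than 4816 reads of any NFI gene. Radial glia genes summed to 5511 to 14300 CPM of the library total in every library (8 genes, VIM and SOX2 among them). Neuronal genes summed to 1343 to 6443 CPM (10 genes) and microglial genes to at most 1.73 (7 genes). Mesenchymal genes (9 genes, collagens among them) stood apart in E42 Anterior, at 13605 to 35632 CPM against 51.9 to 367 in the other series, with all 9 detected in each group. Their part in the E42 Anterior results was not tested, and E42 Anterior results are given below with that series left out where a call or a size changed. Marker genes were called with edgeR at an adjusted p under 0.05, in the mean over the 4 series. From stem to terminal phase 31.9% of all genes tested rose and 30.4% fell. In the same step 9 of 10 neuronal genes, 5 of 5 of intermediate progenitors, 7 of 8 of astrocytes and 3 of 8 of the oligodendrocyte lineage rose and none of them fell. The oligodendrocyte lineage count lay near the share of all genes that rose. Of the radial glia genes 2 rose and 6 fell, of 5 endothelial genes 1 rose and 3 fell, 6 of 9 mesenchymal genes and 6 of 6 of dividing cells fell, and the 1 microglial gene tested did not pass. In bulk samples, fewer cells of a type and less RNA per cell cannot be told apart.

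Between genes, levels were compared as RPKM, the deposited values per kilobase of gene length. NFIX was the highest member in 28 of the 38 libraries and NFIB in the other 10. NFIC was the lowest in 37, and NFIA was the lowest in 1, E77 Frontal on day 1. The order of NFIX and NFIB, and the shares below, depend on the gene lengths behind RPKM (7.16 kb for NFIX and 10.16 kb for NFIB). In CPM, which takes no account of length, the median over the libraries was 996 for NFIB and 930 for NFIX. Of the summed RPKM of the family, NFIX held a median of 41.0% over the libraries (29.6 to 51.6%), NFIB 26.4% (19.8 to 39.6%), NFIA 21.3% (16.6 to 25.2%) and NFIC 8.96% (6.47 to 17.7%). NFIA's share was the steadiest, and the shares of NFIB and NFIX were the ones that differed most between series.

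The make-up of the family differed between phases in the means, most in E42 Anterior. In E42 Anterior NFIB held 24.1 ± 2.26% of the summed RPKM in the stem phase (SD, n = 3) and 36.9 ± 2.39% in the terminal phase (n = 3), while NFIX held 40.6 ± 1.82% and 32.5 ± 2.54%. In E77 Occipital NFIX held 49.1 ± 2.39% in the stem phase (n = 3) and 46.3 ± 4.17% in the terminal phase (n = 4), and NFIB 21.8 ± 1.98% and 24.5 ± 2.41%. The summed RPKM itself ran from 213 to 505, with its lowest group mean in E42 Anterior in the stem phase (229 ± 19.7, n = 3) and its highest in E77 Occipital in the stem phase (471 ± 39.1, n = 3). These shares are a description with no test.

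**Figure D1:**
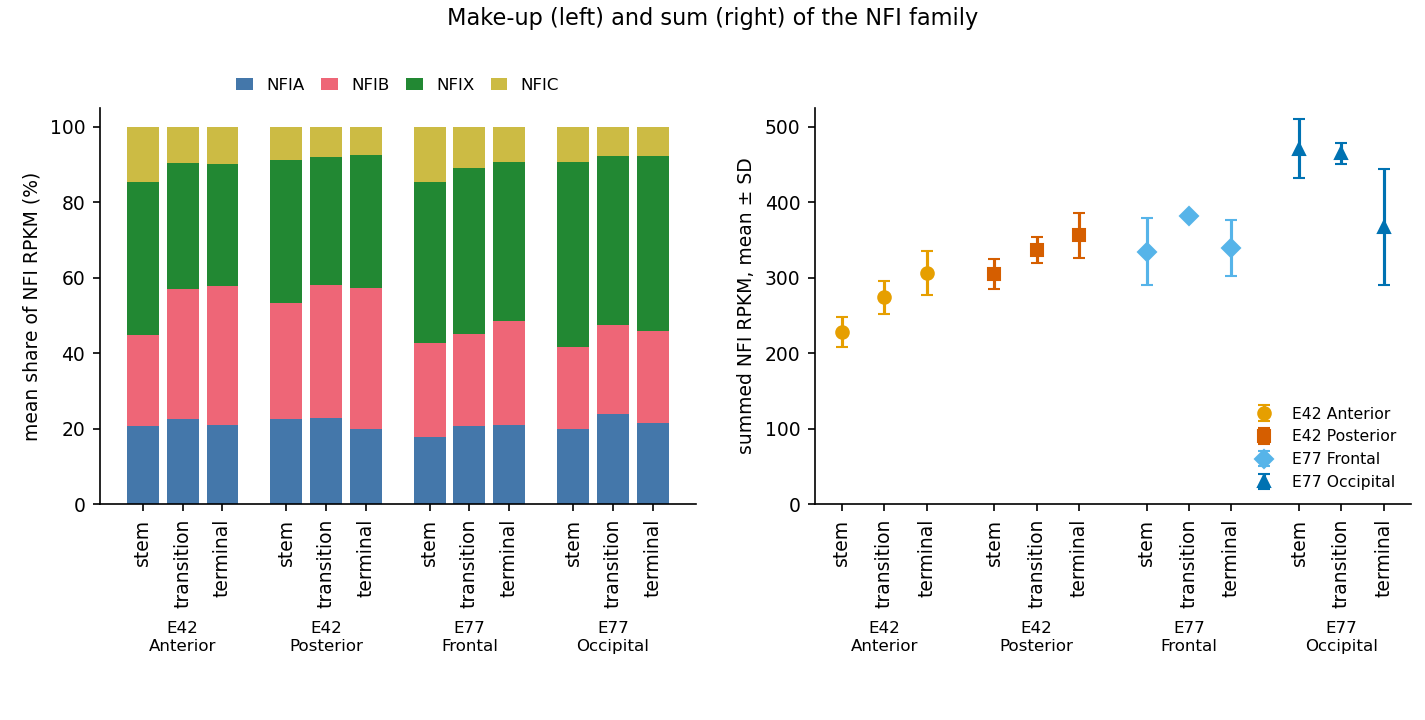
Left, mean share (%) of each NFI gene in the summed RPKM of the family, as stacked bars for the 12 groups of series and phase. Right, the summed RPKM, mean ± SD over the 3 or 4 libraries of a group. NFIB takes a larger share in the terminal than in the stem phase of E42 Anterior (36.9 against 24.1%), and the sum is highest in E77 Occipital in the stem phase.

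From here on, levels of 1 gene across libraries are CPM scaled by TMM factors. Differences are log2 fold changes ± SE from edgeR's quasi-likelihood fit over all genes tested, with Benjamini-Hochberg adjusted p-values and a threshold of 0.05. Statements that groups did not overlap, or that all libraries of 1 group lay above or below another, are descriptions with no test. The share of all genes that separate in this way was not counted.

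**Figure D2:**
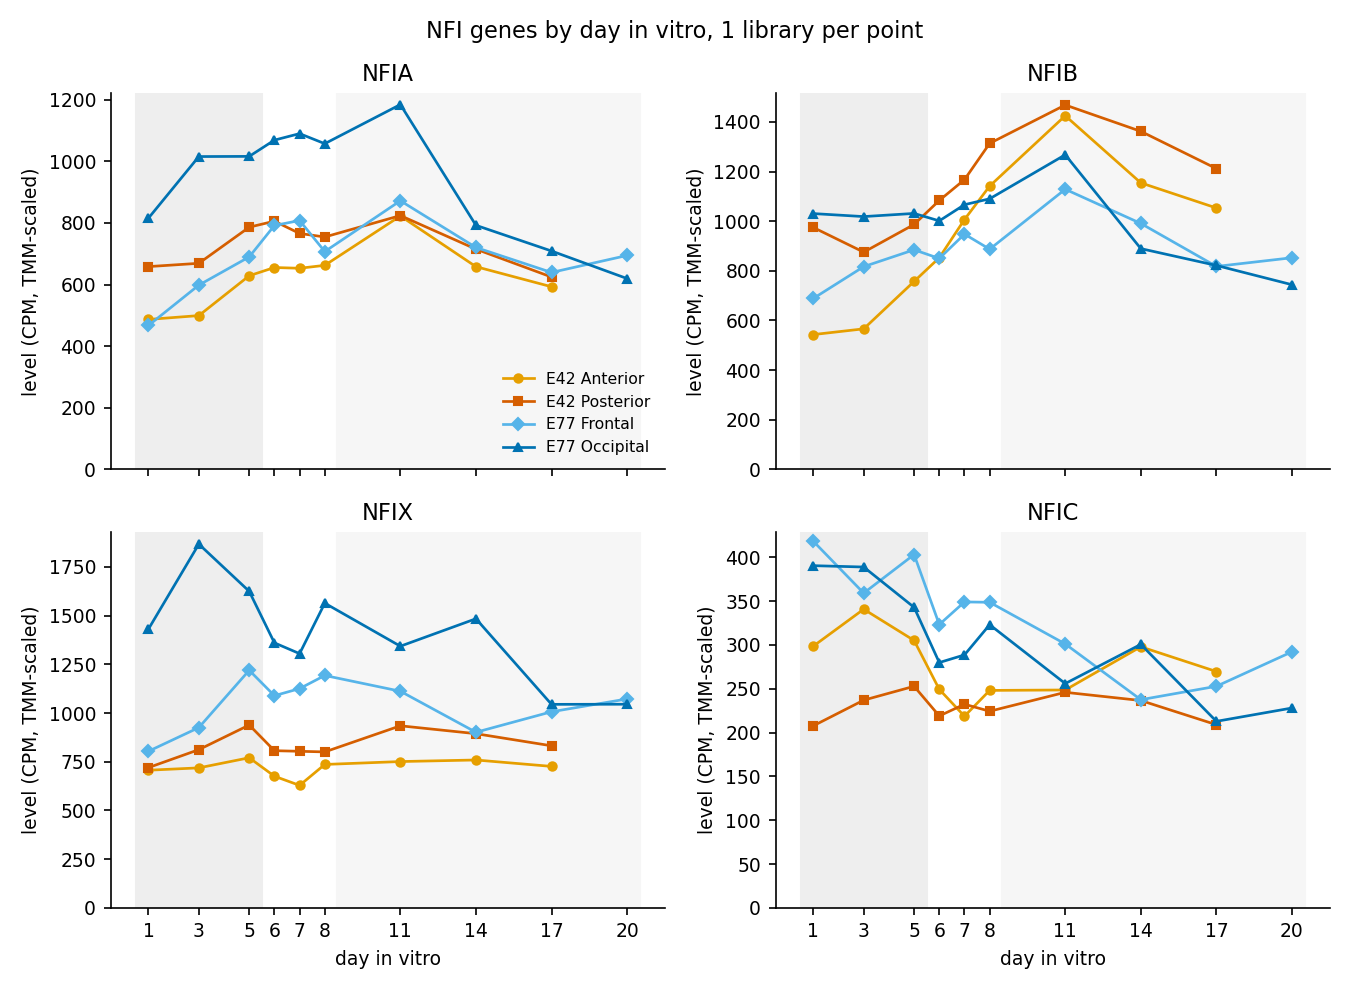
Level (CPM, from 0) of each NFI gene against day in vitro, 1 point per library and 1 line per culture series. The shaded bands mark the stem phase (days 1 to 5) and the terminal phase (days 11 to 20). NFIA and NFIB are highest on day 11 in all 4 series, and NFIX is highest in E77 Occipital on every day but day 20.

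NFIB, which in mouse is needed for forebrain commissures and lung maturation as well as for glia, was the member that rose after FGF2 withdrawal at E42. In E42 Anterior it read 543, 566 and 757 CPM on days 1, 3 and 5, then 853, 1007 and 1142 on days 6, 7 and 8, and 1425, 1155 and 1053 on days 11, 14 and 17. In E42 Posterior it read 975, 875 and 987 CPM in the stem phase, 1084, 1167 and 1314 in the transition, and 1468, 1362 and 1212 in the terminal phase. In both E42 series every terminal library lay above every stem library. In E77 Frontal it read 689, 817 and 885 CPM in the stem phase, 850, 948 and 887 in the transition, and 1129, 991, 818 and 853 in the terminal phase. In E77 Occipital it read 1031, 1019 and 1031 CPM in the stem phase, 1001, 1067 and 1090 in the transition, and 1268, 889, 822 and 744 in the terminal phase. In both E77 series the terminal and stem libraries overlapped.

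Between the stem and terminal phases NFIB rose by 0.96 ± 0.16 on the log2 scale in E42 Anterior (adjusted p = 2.67e-05), where 34.1% of all genes tested passed in either direction. It rose by 0.51 ± 0.16 in E42 Posterior (adjusted p = 0.0106; 39.4% of all genes passed). This call was lost when the library of day 3, 11 or 14 was left out (0.38 to 0.43, adjusted p from 0.0591 to 0.0936). The difference was 0.25 ± 0.15 in E77 Frontal (adjusted p = 0.176; 43.2% of all genes passed) and -0.14 ± 0.15 in E77 Occipital (adjusted p = 0.465; 41.2% passed). Without the day 11 library of E77 Occipital, the latter was -0.33 and passed (adjusted p = 0.0493). Averaged over the 4 series NFIB rose by 0.40 ± 0.08 (adjusted p = 4.58e-05; 62.4% of all genes passed), from 848 ± 176 CPM (n = 12) to 1085 ± 241 (n = 14). Without E42 Anterior this mean was 0.16 and did not pass (adjusted p = 0.0944).

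The rise at E42 was already present in the transition phase, when NFIB stood 0.51 ± 0.11 above the stem phase (adjusted p = 0.00115; 27.7% of all genes passed). The stem and transition means were 622 ± 118 and 1000 ± 145 CPM in E42 Anterior (n = 3 each). In E42 Posterior they were 946 ± 61.2 and 1188 ± 116 CPM (n = 3 each). This step was not tested in each series. At E77 the same step was 0.10 ± 0.11 (adjusted p = 0.544; 26.8% passed). From transition to terminal phase NFIB differed by 0.23 ± 0.11 at E42 (adjusted p = 0.146; 21.8% passed) and by -0.05 ± 0.10 at E77 (adjusted p = 0.739; 41.4% passed). The terminal against stem change was itself lower at E77 than at E42, by -0.63 ± 0.10 on the log2 scale (test of the difference, adjusted p = 4.04e-05; 26.2% of all genes passed).

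The difference between ages therefore had opposite signs early and late. In the stem phase NFIB was 0.24 ± 0.07 higher at E77 than at E42 (adjusted p = 0.00372; 60.2% of all genes passed), with overlapping groups. Without the day block its adjusted p was 0.072, and with Posterior and Occipital libraries alone the difference was 0.12 (adjusted p = 0.403). In the terminal phase NFIB was lower at E77 by -0.38 ± 0.07 (adjusted p = 4.94e-05; 45% of all genes passed), at 939 ± 179 CPM (n = 8) against 1279 ± 164 (n = 6). In the transition phase the difference was -0.16 ± 0.07 (adjusted p = 0.0464; 56.8% passed), and this call was lost without any one of 10 of the 12 libraries (-0.18 to -0.11, adjusted p from 0.0507 to 0.214), without the day block (adjusted p = 0.216) and with Posterior and Occipital libraries alone (-0.13, adjusted p = 0.376). It was also lost with DESeq2 (-0.14, adjusted p = 0.0931) and with limma on RPKM (-0.06, adjusted p = 0.468).

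For the 2 pairs of series, NFIB in the stem phase was 0.36 ± 0.10 higher in E77 Frontal than in E42 Anterior (adjusted p = 0.00269; 54.8% of all genes passed). That call was lost without E42 Anterior day 1 or E77 Frontal day 3 (0.27 each, adjusted p = 0.0520 and 0.0536) and without the day block (adjusted p = 0.0634). It was 0.12 ± 0.10 higher in E77 Occipital than in E42 Posterior (adjusted p = 0.331; 40.8% passed). In the terminal phase NFIB was lower at E77 in both pairs, by -0.28 ± 0.09 in Frontal against Anterior (adjusted p = 0.0195; 38.2% passed) and by -0.49 ± 0.09 in Occipital against Posterior (adjusted p = 0.000166; 35.9% passed). With only the libraries compared, the latter was -0.41 and did not pass (adjusted p = 0.0607). The Frontal against Anterior call was lost without day 11 or day 17 of either series (-0.28 to -0.23, adjusted p from 0.0542 to 0.102) and without the day block (adjusted p = 0.0695).

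By region, NFIB was lower in Anterior than in Posterior at E42 over all days, by -0.34 ± 0.06 (adjusted p = 9.69e-06; 55.3% of all genes passed). The gap was -0.62 ± 0.10 in the stem phase (adjusted p = 1.31e-05; 35.5% passed), with no overlap between 543 to 757 CPM and 875 to 987 CPM, and -0.16 ± 0.10 in the terminal phase (adjusted p = 0.196; 35.8% passed). At E77 NFIB was lower in Frontal than in Occipital by -0.19 ± 0.05 over all days (adjusted p = 0.00815; 30.1% passed; adjusted p = 0.121 without the day block). In the stem phase it was -0.37 ± 0.10 (adjusted p = 0.00574; 22.7% passed), a call lost without day 1 of either series (-0.31 to -0.28, adjusted p from 0.0554 to 0.0928) and without the day block (adjusted p = 0.127). The E77 regions differed in the terminal phase by 0.04 ± 0.08 (adjusted p = 0.836; 13.6% passed). The region difference between the ages did not pass with edgeR (0.16 ± 0.08, adjusted p = 0.116; 38.6% passed) and was called with limma on RPKM (0.29, adjusted p = 0.00481).

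NFIA, which in mouse and chick spinal cord starts gliogenesis downstream of SOX9, moved less between phases than NFIB at E42. At E77 its fitted changes were the larger ones in every phase comparison. With edgeR on all libraries, no E77 phase change of either gene passed. In E42 Anterior NFIA read 487, 499 and 629 CPM in the stem phase, 655, 653 and 662 in the transition, and 823, 658 and 593 in the terminal phase. In E42 Posterior it read 658, 669 and 786 CPM, then 806, 766 and 754, then 824, 715 and 624. In both series the day 11 library was the highest and the terminal and stem groups overlapped. In E77 Frontal NFIA read 467, 598 and 690 CPM in the stem phase, 792, 808 and 707 in the transition, and 872, 720, 639 and 694 in the terminal phase. In E77 Occipital it read 816, 1016 and 1016 CPM, then 1069, 1090 and 1057, then 1185, 792, 709 and 619. E77 Occipital held NFIA's highest library (day 11) and was above the other series on every day up to day 17.

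Averaged over the series, NFIA did not pass between stem and terminal phase (0.13 ± 0.08, adjusted p = 0.174), nor in any single series (-0.20 to 0.36). Leaving out a single library gave a call in E77 Frontal (without stem day 5, 0.46, adjusted p = 0.0424) and in E77 Occipital (without terminal day 11, -0.43, adjusted p = 0.0146). With edgeR the steps to and from the transition phase did not pass either. The nearest were at E77, with 0.29 ± 0.12 from stem to transition (adjusted p = 0.0774) and -0.22 ± 0.11 from transition to terminal (adjusted p = 0.108). The first passed without E77 Frontal day 5 (0.35, adjusted p = 0.0373) and the second without E77 Occipital day 11 (-0.34, adjusted p = 0.00493). With limma on RPKM both passed (0.33, adjusted p = 0.0383, and -0.34, adjusted p = 0.0173), and the first also with only the libraries compared (0.29, adjusted p = 0.0417).

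By age, NFIA was higher at E77 in all phases, by 0.27 ± 0.06 in the stem phase (adjusted p = 0.00084), 0.35 ± 0.06 in the transition (adjusted p = 6.67e-05) and 0.20 ± 0.06 in the terminal phase (adjusted p = 0.0136). Groups overlapped in each phase. Without the day block the stem and terminal calls were lost (adjusted p = 0.0540 and 0.352). The terminal call was also lost without E77 Occipital day 11 (0.13, adjusted p = 0.078). By pair, in the stem phase Occipital exceeded Posterior by 0.43 ± 0.09 (adjusted p = 0.000549; adjusted p = 0.0535 without the day block) and Frontal exceeded Anterior by 0.11 ± 0.09 (adjusted p = 0.303). Terminal values were 0.24 ± 0.09 (adjusted p = 0.0364) and 0.16 ± 0.09 (adjusted p = 0.163). With limma on RPKM Frontal against Anterior was called in both phases (0.33, adjusted p = 0.00289, and 0.25, adjusted p = 0.02). The terminal call for Occipital against Posterior was lost without day 11 of E42 Posterior or E77 Occipital (0.23 and 0.12), without the day block (adjusted p = 0.383) and with only the libraries compared (0.33, adjusted p = 0.114).

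NFIA was lower in the anterior series at both ages. Over all days the difference was -0.23 ± 0.05 at E42 (adjusted p = 0.00051; adjusted p = 0.0538 without the day block) and -0.44 ± 0.05 at E77 (adjusted p = 9.78e-08). In the stem phase it was -0.39 ± 0.09 at E42 (adjusted p = 0.0012; adjusted p = 0.0927 without the day block), with 487 to 629 against 658 to 786 CPM. At E77 it was -0.71 ± 0.09 (adjusted p = 2.11e-06), with 467 to 690 against 816 to 1016 CPM. Neither pair of ranges overlapped. In the terminal phase the differences were -0.07 ± 0.09 at E42 (adjusted p = 0.606) and -0.14 ± 0.08 at E77 (adjusted p = 0.289). The region difference was larger at E77 than at E42 by -0.21 ± 0.07 (adjusted p = 0.023), but on RPKM with limma it was -0.08 (adjusted p = 0.380), and without the day block its adjusted p was 0.234.

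NFIX, which in mouse acts in late and postnatal neural stem cells and whose human mutations cause an overgrowth syndrome (Malan syndrome), separated the ages more than any other member in all 3 phases. In E77 Occipital it read 1431, 1867 and 1625 CPM in the stem phase, 1360, 1305 and 1564 in the transition, and 1343, 1484, 1045 and 1045 in the terminal phase. In E77 Frontal it read 804, 925 and 1219 CPM, then 1089, 1126 and 1193, then 1112, 901, 1007 and 1072. In E42 Posterior it read 720, 812 and 939 CPM, then 807, 804 and 800.5, then 935, 894 and 832. E42 Anterior was the lowest series on every day it was sampled, with 707, 719 and 770 CPM in the stem phase, 676, 629 and 736 in the transition, and 751, 759 and 726 in the terminal phase. The order of the series was thus E77 Occipital, E77 Frontal, E42 Posterior and E42 Anterior on each of the 9 days when all were sampled, with E77 Frontal and E42 Posterior closest on day 14, at 901 and 894 CPM.

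NFIX was higher at E77 by 0.70 ± 0.08 in the stem phase (adjusted p = 3.51e-08), 0.77 ± 0.08 in the transition (adjusted p = 1.03e-08) and 0.49 ± 0.08 in the terminal phase (adjusted p = 1.34e-05). In the transition phase the groups did not overlap, at 1273 ± 176 CPM (n = 6) against 742 ± 75.7 (n = 6). In the stem phase Occipital stood 1.001 ± 0.11 above Posterior (adjusted p = 1.3e-07) and Frontal 0.41 ± 0.11 above Anterior (adjusted p = 0.00312). The latter call was lost without E77 Frontal day 5 (0.28, adjusted p = 0.0523). In the terminal phase the pairs differed by about as much, 0.49 ± 0.11 for Occipital against Posterior (adjusted p = 0.000743) and 0.48 ± 0.11 for Frontal against Anterior (adjusted p = 0.000853), again without overlap.

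Between phases NFIX passed in 1 series, E77 Occipital, where it fell by 0.42 ± 0.12 on the log2 scale from stem to terminal phase (adjusted p = 0.00801). That call was lost without its day 3 library (-0.31, adjusted p = 0.0787) and with only the libraries compared (-0.43, adjusted p = 0.0723). The other series gave 0.03 ± 0.13, 0.11 ± 0.13 and 0.06 ± 0.13 for E42 Anterior, E42 Posterior and E77 Frontal. The mean over series was -0.06 ± 0.06 (adjusted p = 0.464), and without day 1 in the stem phase it was -0.16 and passed (adjusted p = 0.0330). The age difference of this change did not pass with edgeR (-0.22 ± 0.11, adjusted p = 0.147). It passed without E77 Occipital day 14 (-0.30, adjusted p = 0.0349) and with limma on RPKM (-0.29 to -0.30, adjusted p = 0.0169 and 0.0172). With edgeR none of the steps to and from the transition phase passed in the fit of all libraries. The E77 step from transition to terminal phase (-0.17 ± 0.09, adjusted p = 0.113) passed without E77 Occipital day 14 (-0.23, adjusted p = 0.0386) and with limma on RPKM (-0.28, adjusted p = 0.007).

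NFIX was lower in the anterior series at both ages over all days, by -0.22 ± 0.06 at E42 (adjusted p = 0.00527) and by -0.44 ± 0.06 at E77 (adjusted p = 2.62e-06). At E77 the stem phase showed -0.75 ± 0.11 (adjusted p = 1.39e-05), with 804 to 1219 against 1431 to 1867 CPM and no overlap. The terminal phase showed -0.25 ± 0.10 (adjusted p = 0.0849), which passed without E77 Frontal day 20, E77 Occipital day 17 or E77 Occipital day 20 (-0.35 to -0.32, adjusted p from 0.0331 to 0.0433). At E42 the differences were -0.16 ± 0.11 in the stem phase (adjusted p = 0.281) and -0.25 ± 0.11 in the terminal phase (adjusted p = 0.0814). Both were called with limma on RPKM (-0.31, adjusted p = 0.00663, and -0.33, adjusted p = 0.00489), and the second with only the libraries compared (-0.20, adjusted p = 0.0462). The region difference was larger at E77 than at E42 by -0.22 ± 0.09 at the edge of the threshold (adjusted p = 0.0497). It was lost without any one of 21 of the 38 libraries (-0.23 to -0.18, adjusted p from 0.0504 to 0.103), without the day block (adjusted p = 0.128) and on RPKM with limma (-0.08, adjusted p = 0.342).

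NFIC, the lowest member, fell from stem to terminal phase at E77. In E77 Frontal it read 418, 359 and 403 CPM in the stem phase, 323, 349 and 349 in the transition, and 301, 237, 253 and 292 in the terminal phase. In E77 Occipital it read 390, 389 and 343 CPM, then 280, 289 and 323, then 256, 301, 213 and 228. In both E77 series every terminal library lay below every stem library. In E42 Anterior NFIC read 299, 341 and 305 CPM, then 249, 219 and 248, then 249, 298 and 270. There too every terminal library lay below every stem library, with the nearest at 298 and 299 CPM. In E42 Posterior it read 208, 237 and 253 CPM, then 219, 232 and 224, then 246, 237 and 209. E42 Posterior stayed within the narrowest band of the 4 series, and its phases overlapped.

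From stem to terminal phase NFIC fell by 0.54 ± 0.10 in E77 Frontal (adjusted p = 0.000103) and by 0.59 ± 0.10 in E77 Occipital (adjusted p = 4.09e-05), on the log2 scale. The differences were -0.21 ± 0.11 in E42 Anterior (adjusted p = 0.146) and -0.01 ± 0.11 in E42 Posterior (adjusted p = 0.942). The mean over series was -0.34 ± 0.05 (adjusted p = 2.67e-06), from 329 ± 69.1 CPM (n = 12) to 256 ± 31.6 (n = 14). The change was larger at E77 than at E42 by -0.45 ± 0.11 (test of the difference, adjusted p = 0.00337), and without day 1 by -0.32 (adjusted p = 0.0529). From stem to transition phase NFIC differed by -0.22 ± 0.08 at E42 (adjusted p = 0.0336) and by -0.27 ± 0.08 at E77 (adjusted p = 0.0106). The E77 call was lost without day 1 in the stem phase (-0.21, adjusted p = 0.0815). The E42 value did not pass without E42 Anterior day 7 or E42 Posterior day 5 (-0.19 each, adjusted p from 0.083 to 0.0944), nor with limma on RPKM (-0.17, adjusted p = 0.0625). In E42 Anterior the stem and transition means were 315 ± 22.7 and 239 ± 17.4 CPM (n = 3 each). In E42 Posterior they were 232 ± 22.9 and 225 ± 6.73 CPM (n = 3 each), so the E42 step lay mostly in Anterior. This step was not tested in each series. From transition to terminal phase NFIC fell further at E77, by 0.29 ± 0.07 (adjusted p = 0.00225), while the difference at E42 was 0.11 ± 0.08 (adjusted p = 0.34).

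By age, NFIC was higher at E77 by 0.51 ± 0.08 in the stem phase (adjusted p = 4.36e-06) and 0.45 ± 0.08 in the transition (adjusted p = 2.26e-05), in both without overlap of the groups. The terminal difference was 0.05 ± 0.08 (adjusted p = 0.611). In the stem phase the pairs gave 0.69 ± 0.11 for Occipital against Posterior (adjusted p = 2.16e-05) and 0.32 ± 0.11 for Frontal against Anterior (adjusted p = 0.0145). The latter call was lost without day 1 or day 5 of either series (0.24 to 0.30, adjusted p from 0.0514 to 0.112). Neither pair passed in the terminal phase (0.11 ± 0.11 and -0.01 ± 0.11).

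NFIC was the 1 member whose anterior level was the higher one at E42, by 0.25 ± 0.06 over all days (adjusted p = 0.00128) and by 0.44 ± 0.11 in the stem phase (adjusted p = 0.00243), where 299 to 341 CPM in Anterior stood above 208 to 253 in Posterior. The terminal difference was 0.24 ± 0.11 (adjusted p = 0.0844), and it passed without E42 Anterior day 11 (0.35, adjusted p = 0.0266). At E77 the difference over all days was 0.13 ± 0.06 (adjusted p = 0.102), and it passed without day 14 of either series (0.17, adjusted p from 0.018 to 0.0265). The stem and terminal values at E77 were 0.07 ± 0.11 and 0.13 ± 0.09, and neither passed.

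**Figure D3:**
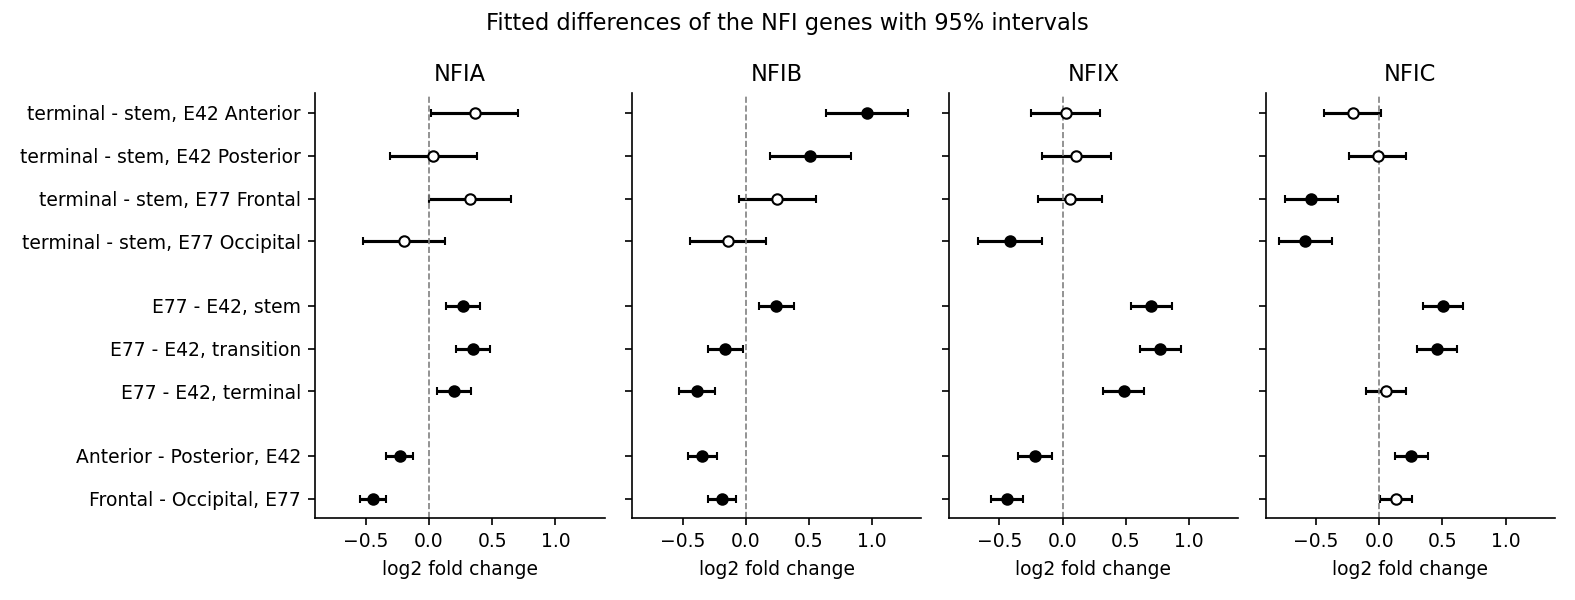
Log2 fold change of each NFI gene in 9 comparisons, with 95% intervals from the edgeR fit. Filled points passed an adjusted p of 0.05 and open points did not. NFIB is above 0 between phases at E42 and changes sign between ages from the stem to the terminal phase, NFIC is below 0 between phases at E77, and NFIX is above 0 in all 3 age comparisons.

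Counted over the family, 4 of 4 members passed in the stem phase between ages, all higher at E77, where 60.2% of all genes passed in either direction and 28.8% were higher. In the transition phase 4 of 4 passed, 3 higher and 1 lower (56.8% of all genes). Of the 4, 3 passed in the terminal phase, 2 higher and 1 lower (45% of all genes). For region over all days 4 of 4 passed at E42 (55.3% of all genes) and 3 of 4 at E77 (30.1%), and in the terminal phase 0 of 4 passed at either age with edgeR (35.8% at E42 and 13.6% at E77). At an unadjusted edgeR p under 0.05 these counts were 2 of 4 at E42 and 1 of 4 at E77. DESeq2 called 1 of 4 at each age (NFIC, adjusted p = 0.0352, and NFIX, adjusted p = 0.047). No share of all genes is given for an unadjusted p or for DESeq2, so these counts cannot be read against one. From stem to terminal phase 2 of 4 passed in the mean over series, 1 higher and 1 lower, where 62.4% of all genes passed. Without the day block, age calls were lost for NFIA and NFIB in the stem phase, NFIB in the transition and NFIA in the terminal phase. Region calls over all days were then lost for NFIA at E42 and for NFIB at E77. The scaling matters for some of these values. With library totals instead of TMM factors, every gene's difference shifts by 0.11 in the stem phase between ages, by 0.22 for Frontal against Anterior in the stem phase, by -0.11 for Anterior against Posterior at E42 and by 0.14 for the region difference between ages.

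NFIA and NFIB shared a high point. Both were highest on day 11 in all 4 series, as were 82 of the 20794 genes tested (0.39%). Single days were compared over the 4 series after these levels had been seen, in a model of series and day. Since day 11 was picked as the highest day of NFIA and NFIB, the direction of their steps to and from it is fixed by that choice, and those values are a description with no test. NFIA stood at 926 ± 174 CPM on day 11 and 641 ± 49.0 on day 17 (n = 4 each), a log2 difference of -0.51 ± 0.11, and NFIB differed by -0.44 ± 0.15 (2.99% of all genes passed in this step). From day 8 to day 11 NFIA and NFIB differed by 0.23 ± 0.11 and 0.26 ± 0.15 (1.15% of all genes passed).

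While the cells were in FGF2, NFIA rose from day 1 to day 5 by 0.37 ± 0.11 (adjusted p = 0.0231), from 607 ± 163 to 780 ± 170 CPM (n = 4 each) and in 4 of 4 series, where 14.5% of all genes passed. It did not pass without E42 Anterior, E42 Posterior or E77 Frontal (0.30 to 0.41, adjusted p from 0.087 to 0.117). This comparison too was added after the levels had been seen, and day 1 was NFIA's lowest day in E42 Anterior and E77 Frontal. Its p-value is thus not that of a planned test, and the rise is best read as a description. NFIX and NFIB were also higher on day 5 in 4 of 4 series and did not pass (0.31 ± 0.12, adjusted p = 0.0788, and 0.19 ± 0.15, adjusted p = 0.425). On the first day without FGF2 (day 6 against day 5), 0.457% of all genes passed and 0 of 4 NFI genes did with edgeR or with DESeq2 (NFIC alone had an unadjusted p under 0.05, 0.0345). NFIC and NFIX were lower in 4 of 4 series, at -0.28 ± 0.13 and -0.21 ± 0.12 (adjusted p = 0.293 and 0.441).

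The gene lengths behind the RPKM values were 10.25 kb for NFIA, 10.16 kb for NFIB, 8.64 kb for NFIC and 7.16 kb for NFIX, against a median of 3.71 kb over genes of at least 10 CPM. The 1825 other genes of 7 kb or more had a median log2 difference of 0.11 from day 8 to day 11 and of -0.10 from day 11 to day 17, against 0.01 and 0.01 over the 11406 genes of at least 10 CPM. From stem to terminal phase the medians were 0.14 and 0.01, and between ages in the stem phase 0.10 and -0.10. The part of gene length in the NFI values was not tested.

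Across the 38 libraries, log2 CPM of NFIA went with that of NFIX (Pearson r = 0.72) and of NFIB (r = 0.59), NFIC with NFIX (r = 0.49), and NFIB against NFIC (r = -0.36). The libraries share series and days, so these are descriptions with no p. Within series NFIA and NFIB had r = 0.90 in E42 Anterior (n = 9), 0.35 in E42 Posterior (n = 9), 0.88 in E77 Frontal (n = 10) and 0.92 in E77 Occipital (n = 10). NFIC and NFIX had r = 0.56, 0.80, 0.08 and 0.89 in the same order, and NFIA and NFIX 0.14, 0.49, 0.72 and 0.60. The pooled r of NFIB and NFIC did not hold within series, at -0.64, 0.10, -0.44 and 0.46, and was -0.17 with series means removed.

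Among 10566 other genes with a symbol and a mean of at least 10 CPM, those with the highest r to NFIA were MED13, UBXN7, TET1, PPP2R3A and PDE9A (0.84 to 0.87). For NFIB they were ADNP, STRBP, WNK3, TRIM33 and USP49 (0.85 to 0.88). For NFIC they were IQGAP1, SCLY, NSD1, MAVS and GPX1 (0.82 to 0.84), and for NFIX PCDHGB7, ERI3, SERINC5, ATXN2 and ADCYAP1R1 (0.87 to 0.90). MED13 is a subunit of the Mediator kinase module, TET1 oxidises 5-methylcytosine and ADNP is a chromatin-associated homeobox protein. With each series' mean removed, the 5 nearest genes held 0 of these 5 for NFIA, 1 for NFIB (ADNP), 0 for NFIC and 0 for NFIX. The r of the named genes after that step was 0.71 to 0.85 for NFIA, 0.82 to 0.87 for NFIB, 0.71 to 0.75 for NFIC and 0.21 to 0.65 for NFIX.

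Genes that NFI proteins are known to activate in glia or in maturing neurons went both ways. Of 11 listed, 10 could be tested, and the cerebellar receptor gene GABRA6 could not. From stem to terminal phase 5 were higher and 3 lower in the mean over series (31.9% and 30.4% of all genes), with a median of 0.47 against 0.00 over all genes. CNTN2, an axonal adhesion molecule, was at 26.8 CPM in the stem and 107 in the terminal phase (2.29 ± 0.31), and the astrocyte filament gene GFAP at 2199 and 3478 (0.71 ± 0.12). The ephrin receptor gene EPHB1 rose by 0.70 ± 0.17, and FABP7, the fatty acid binding protein of radial glia, went from 2197 to 1195 CPM (-0.85 ± 0.07).

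Between ages in the stem phase 7 of the 10 were higher at E77 and 1 lower (28.8% and 31.4% of all genes), with a median of 0.37 against -0.03. GFAP read 3414 CPM in the E77 and 984 in the E42 libraries (1.81 ± 0.13), and APCDD1, a WNT inhibitor found with NFIA in glial precursors, at 136 and 61.9 (0.96 ± 0.10). EPHB1 was higher by 0.60 ± 0.19. CNTN2 was lower in the fit (-0.74 ± 0.23), although its raw mean was higher at E77 (30.2 ± 42.9 CPM against 23.4 ± 15.5, n = 6 each), so mean and test differ in sign. INSC, at under 1 CPM in each group mean, is counted among the genes tested and is given no fold. Without E42 Anterior the counts were 4 higher and 3 lower of 9 tested from stem to terminal phase, and 5 higher and 2 lower of 9 for Occipital against Posterior in the stem phase. No share of all genes is given for the fits without E42 Anterior, so their counts cannot be read against one.

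Of 4 genes that NFI proteins are known to repress, 3 fell from stem to terminal phase and 0 rose (30.4% and 31.9% of all genes), with a median of -0.24. EZH2, the histone methyltransferase of Polycomb repressive complex 2, fell by 0.46 ± 0.07, the Notch effector HES1 by 0.25 ± 0.06 and the HMG-box gene BBX by 0.22 ± 0.06, on the log2 scale. SOX9, a glial fate factor that also stands among the partners, was at -0.07 ± 0.08 (adjusted p = 0.431). Between ages in the stem phase SOX9 was higher at E77 by 0.59 ± 0.10 and BBX by 0.24 ± 0.06, while EZH2 was lower by -0.30 ± 0.06. Without E42 Anterior the counts were 0 higher and 3 lower of 4, and 1 higher and 1 lower of 4, again with no share of all genes beside them.

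Of 11 genes that act beside NFI in gliogenesis, 2 rose and 5 fell from stem to terminal phase (31.9% and 30.4% of all genes; median -0.12). The oligodendrocyte factor SOX10 went from 4.77 to 66.0 CPM (2.03 ± 0.32). The Notch target HES5 went from 89.0 to 24.9 CPM (-1.96 ± 0.21), the receptor gene NOTCH1 fell by 1.28 ± 0.08 and its relative NOTCH2 fell by 0.67 ± 0.08, on the log2 scale. Between ages in the stem phase 7 were higher at E77 and 0 lower (28.8% and 31.4% of all genes; median 0.51), among them the oligodendrocyte lineage factors OLIG1 (2.06 ± 0.18) and OLIG2 (2.02 ± 0.19), SOX8 (0.94 ± 0.12) and the neural POU factor POU3F2 (0.80 ± 0.07). Without E42 Anterior the counts were 3 higher and 5 lower, and 8 higher and 1 lower, again with no share of all genes beside them. Between ages in the stem phase 7 of 8 astrocyte genes were higher at E77 and 0 lower, 4 of 8 oligodendrocyte lineage genes higher and 1 lower, and 1 of 10 neuronal genes higher and 7 lower. Astrocyte markers summed to 2476 to 6919 CPM in the E77 stem libraries against 677 to 1886 at E42 (8 genes). Markers of dividing cells summed to 465 to 1195 in the terminal phase and to 1035 to 2264 in the stem phase (6 genes). Their part in the list counts and in the NFI results was not tested. The target and partner lists share genes with the marker lists. GFAP is also an astrocyte marker, and FABP7, SLC1A3 and HES1 are also radial glia markers. OLIG1, OLIG2 and SOX10 are also oligodendrocyte lineage markers.

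**Figure D4:**
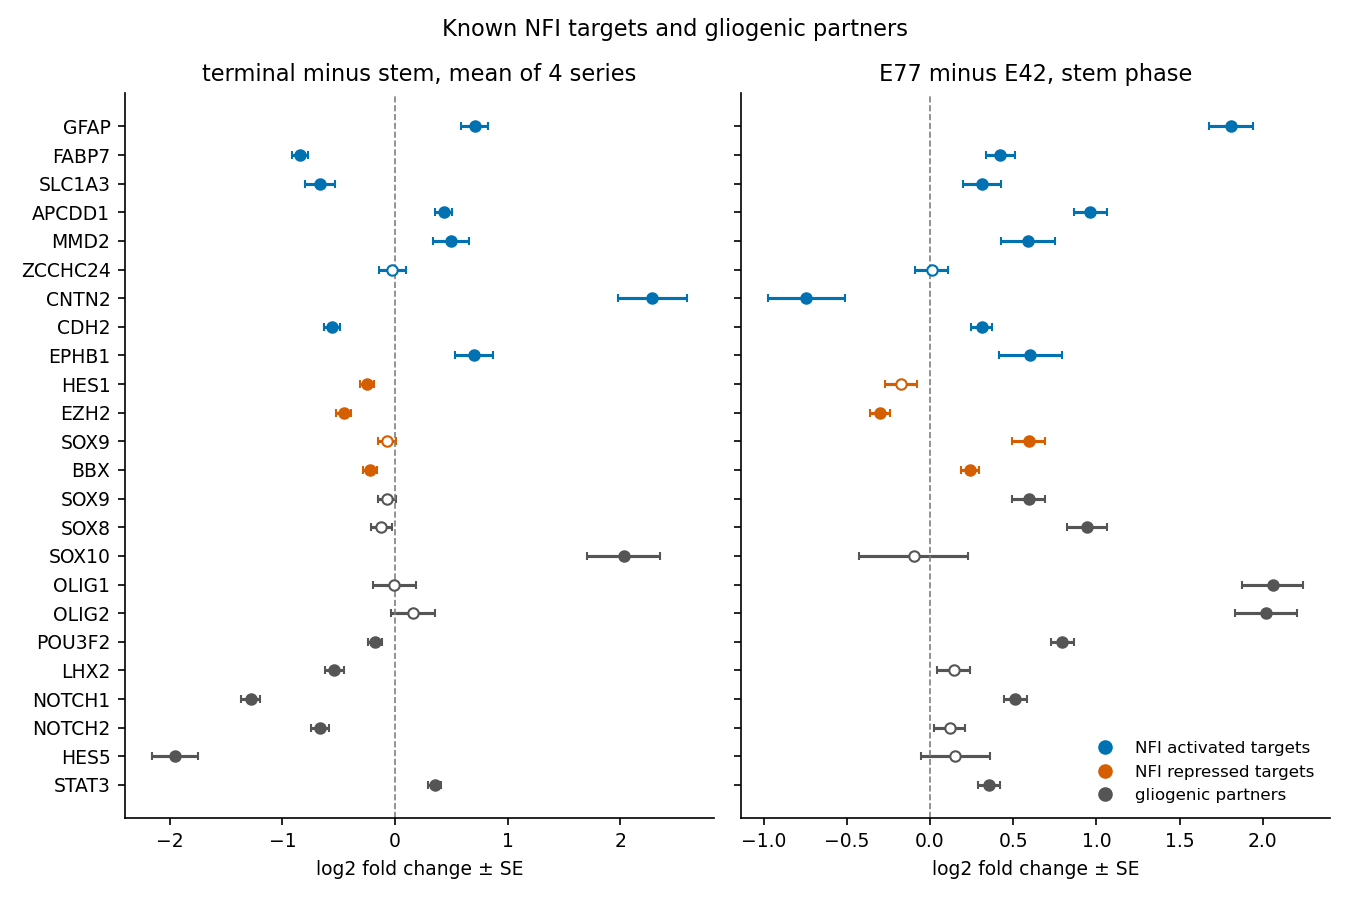
Log2 fold change ± SE of known NFI targets and gliogenic partners, from stem to terminal phase (left) and between ages in the stem phase (right). Filled points passed an adjusted p of 0.05. SOX9 appears in both the repressed targets and the partners, INSC is left out for its low level, and most partners lie above 0 between ages while HES5, NOTCH1 and NOTCH2 lie below 0 between phases.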

How the data were processed

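Poly(A) RNA of 38 macaque cortical culture libraries was measured by strand-specific RNA-seq. Per the submitters' processing notes, STAR and featureCounts were used, without versions; genome build, strand setting and multi-mapping rule are not given in the sources used here. In the RefSeq annotation of an assembly that may not be the one used, 13 lncRNAs overlap NFIA, 4 NFIC, 3 NFIX and 0 NFIB, and reads of such partners could not be told apart if strand was not used. The authors deposited raw counts per gene and, in a second table, RPKM values per gene; the latter were used only for levels between genes and in limma alternatives. Library totals ran from 20149635 to 56363300 counts (median 27597365.5). No library pair agreed within sampling noise (703 pairs, lowest chi-square ratio 10.3).

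Counts were fitted with edgeR 4.0.16 (quasi-likelihood, robust, TMM, filterByExpr; R 4.3.3) over 20794 of 34619 genes. Phase comparisons used 12 group means; the fits for age and region also held the culture day as a blocking term, since the labels give libraries of different series the same day, and 44 of 55 same-day pairs had deviations correlated above 0.1 (median 0.224). Days are nested in phases, so phase comparisons have no block. Adjusted p-values are Benjamini-Hochberg over all genes tested, and every adjusted p in the text is from edgeR's quasi-likelihood test unless another tool is named. Single-day tests (series and day) were added after the levels were seen, as were the long-gene medians and the list counts without E42 Anterior. Alternatives were DESeq2 1.42.0, limma 3.58.1 on log2(RPKM + 1) and log2(RPKM + 0.1), no low-count filter, other sample sets, and leaving out each library, which kept the tested genes and dispersion trend of the full fit. The fit was also run on simulated counts drawn independently for each library, without the same-day correlation given above. That simulation thus cannot show how the p-values hold for this design.

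The members and all lists were chosen with earlier results of these data known. Named list genes are up to 4 called genes per list and comparison with the largest log2 fold change. Named similar genes are the 5 with the highest Pearson r of log2 CPM (prior count 2).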

Additional observations from a re-analysis of the deposited data

Results flagged for a closer look

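The terminal against stem change differed between the ages for NFIB, by -0.626 on the log2 scale at E77 relative to E42 (edgeR, adjusted p = 4.04e-05), and for NFIC, by -0.4527 (adjusted p = 0.00337). The difference between the anterior and posterior series differed between the ages for NFIA, by -0.2115 (adjusted p = 0.023), and for NFIX, by -0.221 (adjusted p = 0.0497). None of 8 tests for a library far from its group (the 4 genes in each E77 terminal group of 4 libraries) picked one out.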

How the results depend on the processing

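Of 2080 alternative values for 112 results, 1877 kept direction and call, 102 lost a call, 41 gained one and 60 changed sign, the last in 18 results that were not called (reported size at most 0.1218); the cause was not tested. Without the replicate block, 46 values stayed on the same side of the threshold and 14 lost their call. The latter include NFIA for Anterior against Posterior (-0.2297) and for age in the stem (0.2752) and terminal phase (0.1391), and NFIB for age in the stem phase (0.238) and Frontal against Occipital (-0.1915). The block changed no other call. Phase comparisons hold no block, since days are nested in phases. With Posterior and Occipital alone NFIB's stem age difference was 0.12, and without E42 Anterior its terminal change was 0.1621. Among the 41 gained calls were NFIC in Frontal against Occipital with limma (0.1614 and 0.1575) and NFIX from stem to terminal phase without day 1 (-0.1603). The gains with limma for NFIA, NFIB and NFIX stand beside their results above. With only the libraries compared, stem-phase Frontal against Anterior lost its call for NFIB (0.3609, adjusted p = 0.0502), NFIC (0.3169, 0.0718) and NFIX (0.4, 0.0565), as did Frontal against Occipital for NFIB (-0.3619, 0.067). Without the low-count filter NFIA from day 1 to day 5 was 0.334 (adjusted p = 0.0538).

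Other settings than leaving out 1 library turned the sign of values not called, which then stood at the values in brackets for NFIA in terminal against stem phase in E42 Posterior (-0.0091, -0.0244 and -0.071), NFIB in Frontal against Occipital at E77 in the terminal phase (-0.0091), NFIB in terminal against transition phase at E77 (0.0227). The same held for NFIC in day 5 against day 1 (-0.0357, -0.0671, -0.0027, -0.0015, -0.0023 and -0.0259), NFIC in Frontal against Anterior in the terminal phase (0.0864 and 0.0839), NFIC in region difference between the ages over all days (0.0144 and 0.0149). The same held for NFIX in day 11 against day 8 (0.0003 and 0.042), NFIX in terminal against stem phase in E42 Anterior (-0.0331 and -0.0226), NFIX in terminal against stem phase in E42 Posterior (-0.0391). The same held for NFIX in terminal against stem phase in E77 Frontal (-0.0807), NFIX in transition against stem phase at E77 (0.0116, 0.0446, 0.0442 and 0.0004). Leaving out each library in turn, values that changed sign spanned the ranges in brackets for NFIA in Anterior against Posterior at E42 in the terminal phase (-0.098 to 0.0063), NFIA in difference between ages in the change from stem to terminal (-0.1362 to 0.0179), NFIA in terminal against stem phase in E42 Posterior (-0.1403 to 0.1199). They also did for NFIA in terminal against transition phase at E42 (-0.0931 to 0.034), NFIB in Frontal against Occipital at E77 in the terminal phase (-0.0088 to 0.1192), NFIC in E77 against E42 in the terminal phase (-0.0187 to 0.1562). They also did for NFIC in Frontal against Anterior in the terminal phase (-0.1146 to 0.1374), NFIC in Frontal against Occipital at E77 in the stem phase (-0.0046 to 0.1632), NFIC in Occipital against Posterior in the terminal phase (-0.0086 to 0.2116). They also did for NFIC in terminal against stem phase in E42 Posterior (-0.1456 to 0.0518), NFIX in terminal against stem phase in E42 Anterior (-0.0276 to 0.0449), NFIX in terminal against stem phase in E42 Posterior (-0.0393 to 0.2113). They also did for NFIX in terminal against stem phase in E77 Frontal (-0.0579 to 0.2428), NFIX in transition against stem phase at E77 (-0.0492 to 0.0873). The called terminal age difference of NFIA ranged from 0.1341 to 0.2545. Frontal against Occipital of NFIC over all days, which was not called in the fit of all libraries, ranged from 0.1057 to 0.1655. Over all genes, calls moved by over 1.5 times in single-day steps (day 6 against 5, 95 reported and 0 to 555, day 11 against 8, 239 and 2 to 556, day 17 against 11, 621 and 11 to 1199, day 5 against 1, 3021 and 1242 to 1795). With Posterior and Occipital alone, age calls went from 12514 to 6755 (stem), 11816 to 6910 (transition) and 9353 to 5667 (terminal). Without the block, Frontal against Occipital went from 4720 to 2954 (stem) and 2828 to 1640 (terminal). With only the libraries compared, Anterior against Posterior in the stem phase went from 7386 to 4781 and Occipital against Posterior in the terminal phase from 7461 to 4472. Without day 1, transition against stem at E42 went from 5757 to 3666. The lowest library count of an NFI gene was 4816, and a group held 3 or 4 libraries, each 1 day of 1 culture. The part of depth and of library number in the precision was not tested.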
